A study of Mus musculus with 7 samples.

Results

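Carbonic anhydrases are zinc enzymes that interconvert carbon dioxide and water with bicarbonate and a proton. Red cells hold large amounts of the cytosolic forms, which let carbon dioxide picked up in tissues travel as bicarbonate, and bicarbonate crosses the red cell membrane through the anion exchanger band 3, the product of Slc4a1. The family also has mitochondrial, membrane-bound and secreted forms, and a few members that have lost the catalytic activity. The 10 genes described here are Car1, Car2, Car3, Car4, Car5b, Car8, Car9, Car12, Car13 and Car14, chosen by name, and a gene was read from a probeset annotated with that symbol alone. By this rule 9 of the 10 had a value, out of 22180 genes measured in all. Car14, a transmembrane form, shares its probeset with Aph1a and has no value here. Where a gene had several probesets, the one with the highest mean over all 7 arrays was used.

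The cells were G1E, a mouse erythroid line that lacks functional GATA1 and is arrested as an immature precursor, grown in G1E medium with no other agent named in the labels. Control cells, with wild-type Lockd, were profiled on 3 arrays, and cells in which Lockd, which is transcribed into a long non-coding RNA beside Cdkn1b, had been deleted with CRISPR/Cas9 were profiled on 4. The series describes the samples as clones of this line. Which clone is on which array, and whether the control cells went through CRISPR/Cas9 themselves, is not stated in the labels. Values are log2 RMA expression, a scale on which 1 unit is a 2-fold change, and a probeset's level also depends on its own probes, so a gene's level is compared between arrays, and the place of a probeset among all genes is only a rough guide to how strongly a gene is expressed. Readings are listed in replicate order, 1 to 3 for control and 1 to 4 for deletion. RMA gives no detection call, so a low reading is not read as absence. Total RNA of whole cultures was measured, so fewer cells with a transcript and less transcript per cell cannot be told apart.

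The deletion and the cell type were checked first. Lockd averaged 4.89 ± 0.48 (SD, n = 4) on the deletion arrays against 7.91 ± 0.12 (SD, n = 3) on the control arrays. Of the 17 erythroid markers 15 had a value, 12 of them above the median level of all genes. The exceptions were the embryonic globin genes Hbb-bh1, Hba-x and Hbb-y, which read between 3.45 and 5.70 over the arrays. Of the markers of other blood cells, 0 of 6 lymphoid, 1 of 8 myeloid, 2 of 5 megakaryocyte and 3 of 8 mast cell genes lay above that median. Kit, which lay above it, is counted in both the erythroid and the mast cell list. The smallest p in these marker lists belonged to Tfrc at -0.17, Gp9 at -0.33, Mpo at 0.24, Cd79a at -0.18 and Cma1 at -0.27, differences on the log2 scale that did not pass in limma with adjustment. Across the 23521 probesets tested, limma with Benjamini-Hochberg adjustment called 2, which is 0.0085%, and 0 of the 9 carbonic anhydrase genes were among them. At an unadjusted limma p under 0.05 there were also 0 of the 9, where 4.61% of all genes were.

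Car1 and Car2, the cytosolic isozymes of red cells, did not pass the test, and their intervals leave room only for small differences in these readings. Their probesets were among the brightest, with 99.5% and 99.9% of genes below them. Whether such bright probesets follow the transcript in full was not tested, so these intervals bound the readings and not the transcript. Car2, the high-activity form that also serves osteoclasts and kidney, read 13.23, 13.27 and 13.30 on the control arrays and 13.17, 13.21, 13.31 and 13.21 on the deletion arrays. The deletion arrays spanned the control readings, with the highest and the lowest of all 7 both among them. The difference, deletion minus control, was -0.04 (SE 0.06, 95% interval -0.19 to 0.10), which as a ratio is 0.971 with an interval of 0.877 to 1.08.

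Car1, the low-activity red cell form, read 12.18, 12.50 and 12.55 on the control arrays and 12.47, 12.30, 12.62 and 12.60 on the deletion arrays. Control replicate 1 and deletion replicate 2 were the lowest, and the groups overlapped. The difference was 0.09 (SE 0.12, 95% interval -0.18 to 0.36), a ratio of 1.07 with an interval of 0.886 to 1.28, and it was -0.03 without control replicate 1 and 0.16 without control replicate 3. In limma with Benjamini-Hochberg adjustment over all probesets the adjusted p was 0.999 for each of these isozymes. The exact two-sided permutation test, in which the 35 ways of dealing 7 arrays into the groups were ranked by absolute difference, gave p = 0.486 for Car1 and p = 0.343 for Car2, where the smallest p it allows is 0.0286.

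Within groups the arrays had a spread of 0.05 (SD, log2) for Car2, and 7.84% of genes had a smaller one. It was 0.17 for Car1, with 73.3% of genes below it. Over all 7 arrays the highest reading was 1.10 times the lowest for Car2 and 1.36 times for Car1.

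**Figure D1:**
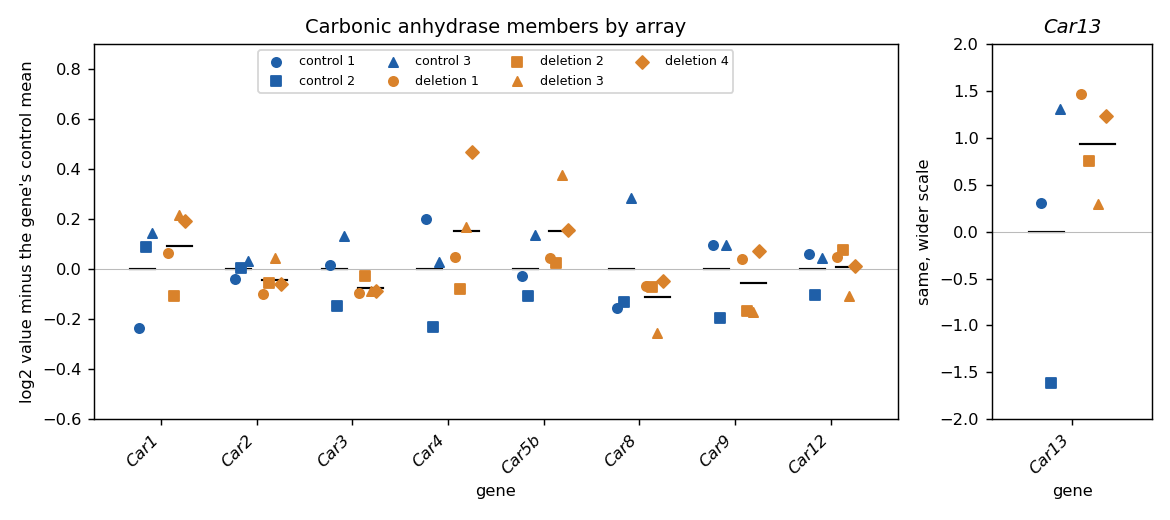
Each point is 1 array, as its log2 value minus the control mean of that gene, for 3 control arrays (blue) and 4 Lockd deletion arrays (orange); black bars are group means. Car13, on its own wider scale, is spread from 7.57 to 10.65 on the log2 scale, while Car2 stays between 13.17 and 13.31.

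Car13 was the family member that varied most. It encodes a further cytosolic isozyme, found in several tissues. Control arrays gave 9.48, 7.57 and 10.49, and deletion arrays 10.65, 9.93, 9.48 and 10.41. Control replicate 2 lay far below the other arrays, and the remaining 6 ranged from 9.48 to 10.65 with the groups intermixed. The highest reading was 8.46 times the lowest.

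The mean of Car13 was 9.18 ± 1.48 (SD, n = 3) for control and 10.12 ± 0.52 (SD, n = 4) for deletion arrays. Their difference of 0.94 (SE 0.60, 95% interval -0.44 to 2.31) did not pass, with a limma p of 0.158 and 0.999 as the adjusted p. It rested largely on control replicate 2, since without that array the difference was 0.13 (SE 0.37), and it was 1.59 (SE 0.52) without control replicate 3, with a limma p of 0.0169 and 0.650 as the adjusted p. The within-group spread of Car13, 1.02 on the log2 scale, ranked at 20 from the top among the 22180 genes.

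Car13 heads a row of 4 carbonic anhydrase genes on mouse chromosome 3, where the order in the assembly GRCm38.p6 is Car13, Car1, Car3, Car2. On control replicate 2, where Car13 was lowest, Car1 and Car2 were not the lowest controls, while Car3 was the lowest of all 7 arrays at 5.75, by a far smaller margin. Car1 read 12.50 on that array, between the 12.18 and 12.55 of the other controls, and Car2 read 13.27. On the other side of Car13 lie Rbis, E2f5, a transcription factor gene of the E2F family, and Lrrcc1, a centrosomal protein gene. They read 10.57, 8.63 and 8.04 on control replicate 2, against 10.53 to 10.60, 8.54 to 8.57 and 8.05 to 8.13 on the other control arrays. Lrrcc1 was thus also lowest there, by a margin far below its SE.

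Of the 5 protein-coding genes on each side of the row, 9 had a value, and 8 of them differed between the groups by -0.05 to 0.16. The other, Gm5150, was the farthest on the Car2 side. It read 4.83, 4.06 and 4.43 on control and 5.13, 5.24, 5.07 and 4.85 on deletion arrays, a difference of 0.64 (SE 0.17). Like Ralyl, the farthest on the Car13 side at 4.12, it was lowest on control replicate 2. Its groups did not overlap, as for 5.19% of all genes. In limma its p was 0.00518 unadjusted, and its adjusted p was above the threshold. Gm5150 was the 1 of the 9 flanking genes with an unadjusted p under 0.05, against 4.61% of all genes. Its difference was 0.45 without control replicate 2. None of the 9 carbonic anhydrase members had groups that did not overlap.

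**Figure D2:**
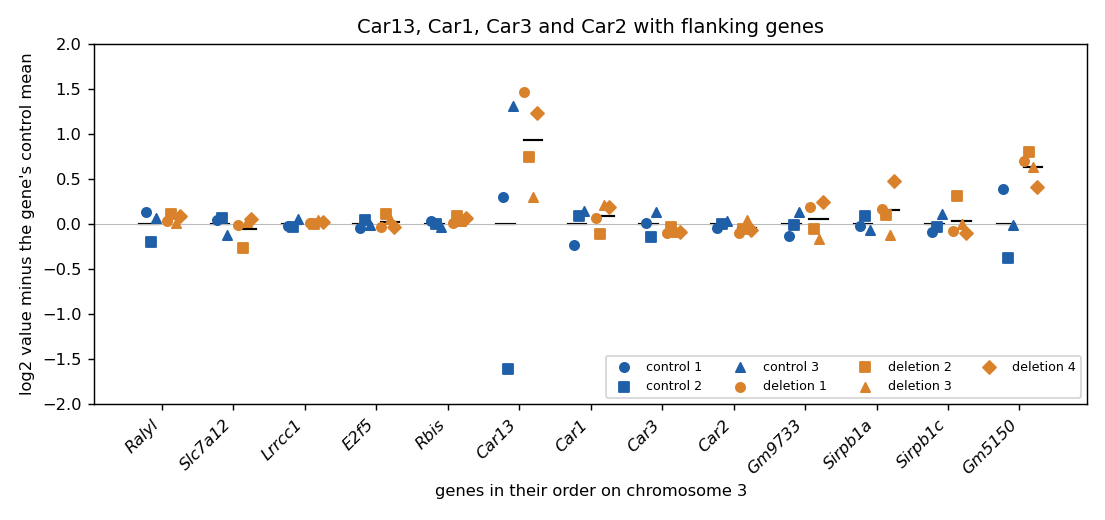
Log2 value minus the control mean of each gene, for the 4 carbonic anhydrase genes of chromosome 3 and the measured genes beside them, in their order along the chromosome (spacing not to scale); points are arrays, black bars group means. The reading of Car13 at 7.57 on control replicate 2 is the farthest from its control mean of any point shown.

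Car3, the low-activity cytosolic form of muscle, fat and liver, lies between Car1 and Car2. It read 5.91, 5.75 and 6.03 on control and 5.81, 5.87, 5.81 and 5.81 on deletion arrays. The deletion arrays lay within the control range. The difference was -0.07 (SE 0.08), and a dimmer probeset of the gene gave -0.05 (SE 0.15).

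The mitochondrial isozyme gene Car5b, which is X-linked, read 4.29, 4.21 and 4.45 on control and 4.36, 4.34, 4.69 and 4.47 on deletion arrays. The groups overlapped, with deletion replicate 3 the highest. Its difference was 0.15 (SE 0.10), the smallest unadjusted p among the other members apart from Car13, at 0.183 in limma. It was 0.075 without deletion replicate 3 and 0.096 without control replicate 2.

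Among the membrane-bound forms, Car4 encodes an enzyme held at the cell surface by a lipid anchor. It read 5.76, 5.33 and 5.59 on control and 5.61, 5.49, 5.73 and 6.03 on deletion arrays. Deletion replicate 4 was the highest array and control replicate 2 the lowest. The difference of 0.15 (SE 0.14) was 0.036 without control replicate 2, 0.045 without deletion replicate 4 and 0.251 without control replicate 1.

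Car9 and Car12 encode transmembrane enzymes that face the outside of the cell and are known, above all in human tumours, as genes switched on by low oxygen. The hypoxia-inducible factors that act on such genes bind elements whose core can be ACGTG. Other forms of the core were not searched. The promoter windows of both, 250 bases before to 50 after the start of the gene, are shown because these isozymes are the family's link to oxygen. They are from RefSeq on GRCm38.p6, at chr4:43506776-43507075 for Car9 and chr9:66713436-66713735 for Car12, both on the plus strand. Capitals mark matches on either strand to ACGTG and to the GATA motifs AGATAA and TGATAA.
Car9: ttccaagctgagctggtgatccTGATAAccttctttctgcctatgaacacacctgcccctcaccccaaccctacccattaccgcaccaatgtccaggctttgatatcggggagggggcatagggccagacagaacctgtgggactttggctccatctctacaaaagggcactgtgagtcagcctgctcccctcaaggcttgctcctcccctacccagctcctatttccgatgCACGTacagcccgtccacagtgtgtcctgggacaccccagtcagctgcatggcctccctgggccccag
Car12: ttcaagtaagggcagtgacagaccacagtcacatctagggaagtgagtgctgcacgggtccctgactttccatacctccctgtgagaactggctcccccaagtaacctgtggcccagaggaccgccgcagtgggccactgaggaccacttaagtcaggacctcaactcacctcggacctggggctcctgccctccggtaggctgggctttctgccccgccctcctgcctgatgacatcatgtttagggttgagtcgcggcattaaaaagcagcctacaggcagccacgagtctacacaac
The Car9 window holds 1 match to ACGTG, on the opposite strand and starting 18 bases before the gene, and 1 to TGATAA at 228 bases before it. The motifs do not overlap. The Car12 window holds 0 of either. Of 32851 promoter windows of this length, 19.6% hold ACGTG and 18.6% a GATA motif. A match is a description of the letters and not a measured site. Of the 10 genes, 5 had a promoter window in the table used, and 3 of these hold ACGTG, those of Car4 and Car14 as well as Car9. The window of Car5b holds 0 matches to ACGTG.

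Car9 read 5.45, 5.15 and 5.44 on control and 5.39, 5.18, 5.18 and 5.42 on deletion arrays. Readings fell into a higher and a lower set in each group, with control replicate 2 and deletion replicates 2 and 3 the lower ones. The difference was -0.06 (SE 0.10). A dimmer Car9 probeset went the other way, at 0.20 (SE 0.11), from a mean of 4.34 for control to 4.54 for deletion, so the probesets disagreed in direction.

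Car12 read 5.12, 4.95 and 5.10 on control and 5.11, 5.14, 4.95 and 5.07 on deletion arrays. These groups overlapped almost completely, and the difference was 0.01 (SE 0.08).

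Car8 encodes a member without catalytic activity, known in Purkinje cells as a partner of an inositol trisphosphate receptor. It read 4.92, 4.94 and 5.36 on control and 5.00, 5.00, 4.82 and 5.03 on deletion arrays. Control replicate 3 stood above all other arrays. The difference was -0.11 (SE 0.12), and 0.03 without that array.

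Set side by side, the differences of the erythroid isozymes lay within the range of those of the other members, and the contrast between these sets was not tested. Car1 and Car2 lay at 0.09 and -0.04, and the 6 other measured members apart from Car13 between -0.11 and 0.15. Over the 9 members 5 were higher and 4 lower in deletion cells, with a median of 0.01, and the median of all 22180 genes was also 0.01. A dim probeset can hide a change, so the intervals of those 6 genes, which together reach from -0.38 to 0.48, bound the readings and not the transcript.

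**Figure D3:**
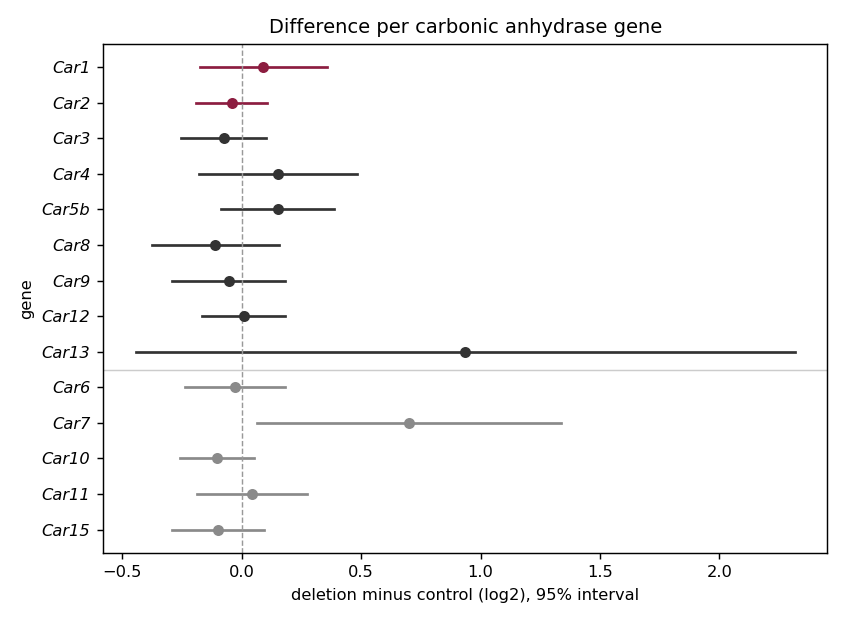
Difference between deletion and control cells on the log2 scale for each carbonic anhydrase gene with a value, with 95% intervals from limma; the erythroid isozymes are dark red, the other members black and the remaining genes of the family grey. All intervals of the 9 members include 0, and that of Car13 reaches from -0.44 to 2.31.

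Among the controls, replicate 2 gave the lowest reading of 6 of the 7 other members, Car13 included, of 0 of the 2 erythroid isozymes and of 38.1% of all genes. This tally was made after the values were seen and was not tested. The exception was Car8, and Car12 was as low on deletion replicate 3. With control replicate 2 left out, Car3 differed by -0.15, Car9 by -0.15 and Car12 by -0.04. Leaving out control replicate 3 gave -0.009 for Car3 and -0.008 for Car9, and leaving out control replicate 1 gave -0.006 for Car9. In limma 0 of the 9 members passed with any 1 of the 7 arrays left out.

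Genes of the family outside the 10 were read from a list of 6, of which 5 had a value. Car7, a cytosolic isozyme known from brain, was the 1 of these 5 with an unadjusted limma p under 0.05, which 4.61% of all genes had. It read 7.10, 7.82 and 7.50 on control and 8.04, 7.72, 8.02 and 8.92 on deletion arrays. Deletion replicate 4 was the highest, and deletion replicate 2 lay below control replicate 2. The difference was 0.70 (SE 0.28, 95% interval 0.06 to 1.34), with a limma p of 0.0347 and 0.999 as the adjusted p. It was 0.45 without deletion replicate 4. The rest were Car6, the secreted form of saliva, at -0.03 (SE 0.09), Car10 and Car11, which lack catalytic activity, at -0.10 (SE 0.07) and 0.04 (SE 0.10), and Car15, a lipid-anchored form, at -0.10 (SE 0.08).

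None of the listed transport partners of carbonic anhydrase passed in limma with adjustment. Of 24 listed bicarbonate and proton transporter genes 21 had a value, and their median difference was 0.00, with 11 higher and 10 lower. At an unadjusted limma p under 0.05 there was 1 of the 21, near the 4.61% of all genes, and it was Slc4a8, a sodium-driven bicarbonate exchanger gene, at 0.30 (SE 0.11). It read 4.86, 4.96 and 5.13 on control and 5.48, 5.34, 5.08 and 5.23 on deletion arrays, so the groups overlapped. Slc16a1, the lactate and proton carrier gene, differed by 0.05 (SE 0.07). Of the 12 water and gas channel genes, 7 were lower and 5 higher, with a median of -0.06. At an unadjusted limma p under 0.05 there was 1 of the 12, against 4.61% of all genes. It was Aqp7, an aquaglyceroporin gene, at 0.21 (SE 0.08), with groups that did not overlap, as for 5.19% of all genes, and 0.13 without control replicate 2. Rhag, a red cell membrane gene of the Rh complex, differed by -0.03.

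Slc4a1, the band 3 gene, varied between arrays more than Car1 or Car2. It read 7.48, 8.67 and 8.34 on control and 7.996, 7.40, 8.84 and 8.11 on deletion arrays. The group difference was -0.08 (95% interval -0.90 to 0.74), while the within-group spread ranked at 87 from the top among all genes. Deletion replicate 3 was the highest array for Slc4a1, Car1 and Car2 alike. Control replicate 1 and deletion replicate 2 were the lowest for Slc4a1 and for Car1. This likeness was noticed after the values were seen and was not tested.

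**Figure D4:**
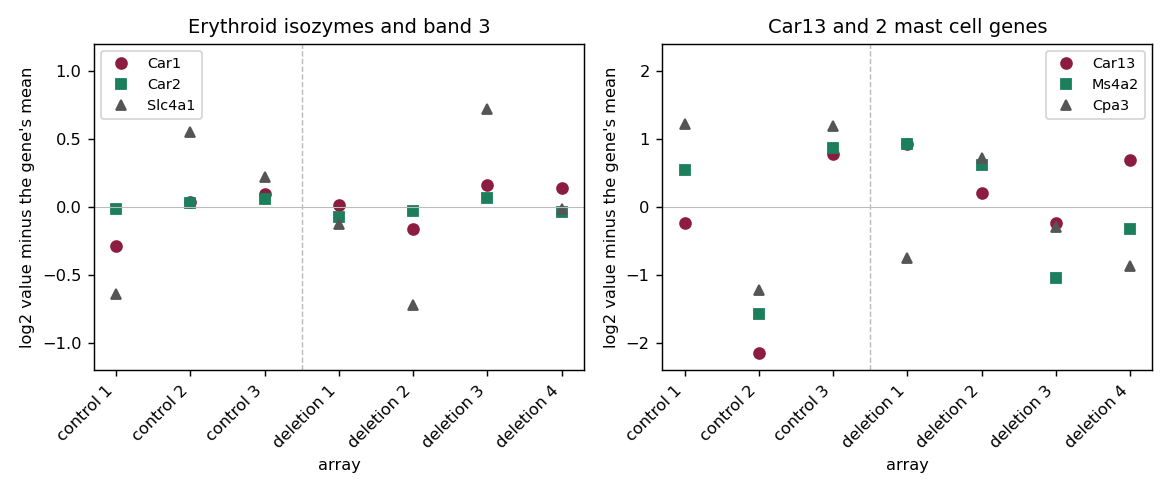
Log2 value of each gene minus its mean over all 7 arrays, with control arrays to the left of the dashed line. On the left Slc4a1 and Car1 share their lowest arrays, control replicate 1 and deletion replicate 2; on the right Car13 and Ms4a2 are both lowest on control replicate 2.

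Mast cell markers were set beside Car13 because some of them also varied between arrays. Ms4a2, a chain of the IgE receptor, read 9.67, 7.55 and 9.99 on control and 10.05, 9.74, 8.07 and 8.81 on deletion arrays. Cpa3, a mast cell protease gene, read 11.97, 9.53 and 11.95 on control and 9.998, 11.48, 10.46 and 9.88 on deletion arrays. Both were lowest on control replicate 2, as Car13 was. Ms4a2 and Car13 were also both highest on deletion replicate 1, at 10.05 and 10.65. Replicate 3 was the lowest deletion array for both, at 8.07 and 9.48. On deletion replicate 4 Ms4a2 was low at 8.81, while Car13 read 10.41. Cpa3 was also low on deletion replicates 1 and 4, unlike Car13. Ms4a2 and Cpa3 were picked after their values were seen. Replicate 2 gave the lowest control reading of 4 of the 8 mast cell markers, against 38.1% of all genes. The mean level of the 8 mast cell markers lay between 6.14 and 6.86 over control arrays and between 6.30 and 6.75 over deletion arrays. Its lowest value, 6.14, was on control replicate 2. Ms4a2 and Cpa3 are themselves among the 8, and among the 4 that were lowest there. They varied far more than the rest, of which Hdc varied most, between 4.74 and 5.48 over the arrays. The low mean on control replicate 2 therefore largely repeats these picked genes and is not a separate likeness to Car13. The part of these genes in the reading of Car13 was not tested.

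The oxygen sensing genes, listed beside Car9 and Car12, numbered 10 and all had a value. Egln1, a prolyl hydroxylase gene that marks hypoxia-inducible factors for destruction, differed by -0.26 (SE 0.09), and did not pass in limma after adjustment. It was the 1 of the 10 with an unadjusted limma p under 0.05, which 4.61% of all genes had. The median of the list was -0.01, and Hif1a itself differed by -0.03. Of the 12 erythroid regulator genes, Lmo2, part of the GATA and TAL1 complex, had the smallest p. It differed by 0.31 (SE 0.13) on the log2 scale, with an unadjusted limma p of 0.0406, and did not pass after adjustment. Lmo2 was the 1 of the 12 with an unadjusted limma p under 0.05, against 4.61% of all genes. The median difference of that list was -0.01.

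The genes whose readings followed those of the erythroid isozymes most closely were found by Pearson correlation over the 7 arrays after the group means were removed. For Car1 they were Engase, a deglycosylating enzyme gene, Cops5, a COP9 signalosome subunit gene, and 2610524H06Rik, each with r = 0.987 or 0.986. For Car2 they were Ptpn2, a tyrosine phosphatase gene, with r = 0.997, Crisp2 with r = 0.994 and Dcaf6 with r = 0.990. Some of these correlations rest on small shifts or dim probesets. Ptpn2 read only 9.72 to 9.81 over the arrays, and 2610524H06Rik was dim at 3.46 to 3.94. Over 7 arrays a high correlation can arise by chance, and 139 genes exceeded 0.9 for Car1 and 119 for Car2. The same search for Car13, added after its values were seen, gave 632 genes above 0.9, led by Nrtn, the neurturin gene, Htr2b, a serotonin receptor gene, and Ces2g, a carboxylesterase gene. Their correlations with Car13 were 0.997, 0.995 and 0.994, and 0.993, 0.989 and 0.985 without control replicate 2. Between Car1 and Car2 the correlation was 0.59. Over all pairs of members it ran from -0.66, for Car2 and Car12, to 0.87, for Car9 and Car13. These are descriptions of 7 arrays that share the line and the processing.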

How the data were processed

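Per the submitters' processing notes, the log2 expression values that the authors deposited came from RMA, run in Expression Console of Affymetrix. RMA corrects background, gives the arrays a common distribution and summarises each probeset. The software version and genome build are not stated. Values ran from 1.87 to 14.01, with column medians of 5.417 to 5.463. Sample titles gave the groups and replicate numbers, and the labels do not say whether replicates were separate cultures, so p-values measure only the spread between these samples. The number of arrays limits the precision.

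Of 41345 probesets, the 23521 with exactly 1 symbol in the platform annotation were tested with limma 3.58.1 under R 4.3.3 (lmFit, eBayes, both groups, no covariate, two-sided), with Benjamini-Hochberg adjustment over all of them and a threshold of 0.05. Genes were represented by their brightest probeset. The code was tested on simulated data. Gene order and promoters came from RefSeq on GRCm38.p6. The rule for named genes took all members and family genes, the members of other lists with the smallest p, and 5 neighbours on each side of the chromosome 3 row. Members and lists were chosen with earlier results of these data known. Slc4a1, Slc16a1, Rhag, Hif1a, Ms4a2, Cpa3, and Car13 for the correlation search, were singled out after their values were seen. Arrays of the same replicate number were not paired, since the correlations of their deviations were 0.025, 0.061 and -0.098. The description labels number the deletion arrays from 2 to 5, unlike the titles, and by those numbers the correlations were -0.171 and -0.099.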

Additional observations from a re-analysis of the deposited data

Results flagged for a closer look

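Of 25 genes examined in the group of 4 deletion arrays, 3 had an array far from the others relative to the range of the group. Chance alone gives about 1 in 20 per gene, and these genes share the same arrays. Lockd read 4.17 on deletion replicate 3, against 5.09 to 5.15 on the other deletion arrays. Car8 read 4.82 on deletion replicate 3, against 5.00 to 5.03. Car3 read 5.87 on deletion replicate 2, against 5.81 on each of the other deletion arrays. Its deletion arrays spanned only 0.06 on the log2 scale, and its control arrays 0.28. Groups of 3 were not examined in this way, so the reading of Car13 on control replicate 2 was not examined.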

How the results depend on the processing

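None of the 9 members passed in limma under any alternative run, and with control replicate 3 left out 1 member, Car13, had an unadjusted p under 0.05, so that leaving out arrays gave 0 to 1. Car1 ran from -0.026 to 0.164 with arrays left out, and reversed without control replicate 1. Car8 ran from -0.187 to 0.032 and reversed without control replicate 3. Car12 ran from -0.044 to 0.047, and was -0.021 with the arrays quantile normalized again. Car9 was 0.072 with its probesets averaged. Car13 kept its direction, from 0.13 to 1.59. The arrays are not shown to be paired by number, and with the replicate block Car1 differed by 0.06, Car2 by -0.04 and Car13 by 0.84. The 2 probesets past the threshold fell to 0 with the replicate block and with all probesets tested, and leaving out arrays gave 0 to 2. The causes were not tested. Requiring values over 5 on at least 3 arrays left Car5b out. Dim probesets limit what the readings can show.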
